A study of Mus musculus with 4 samples.

Results

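The CXCL12, CXCL16 and fractalkine axes comprise 3 chemokine genes and the 4 receptor genes that read them, and were followed in mouse abdominal aortic grafts taken 4 weeks after transplantation. The genes were chosen by name, with earlier results of these data known. They were Cxcl12, Cxcl16 and Cx3cl1 as ligands, and Cxcr4, Ackr3, Cxcr6 and Cx3cr1 as receptors, 7 of the 54752 genes in the count table. All 7 had counts in every library and all 7 were among the 16498 genes that passed the filter on low counts. Whole-tissue RNA was sequenced after removal of ribosomal RNA from 2 ALLO grafts, which the series title calls allografts in chronic rejection, and from 2 ISO grafts, which the labels leave unexplained (n = 2 per group throughout). Nothing in the labels gives the strain, sex, age, recipient or treatment of the animals, or tells separate animals from pooled or divided tissue within a group. The p-values therefore measure only the spread between these libraries, which may in part be technical. Counts of sex-linked genes, given below, show that the 2 ISO libraries were not divided from the same tissue.

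Chemokines are small proteins that guide cells through G protein-coupled receptors on the cell surface. CXCL12 is secreted mainly by stromal and vessel wall cells and acts on CXCR4, which holds leukocytes and progenitor cells in tissues, while ACKR3 binds the same ligand, does not signal through G proteins in the usual way, and removes CXCL12 by internalising it. CXCL16 and fractalkine, the product of Cx3cl1, differ from most chemokines in being made as membrane proteins with the chemokine domain on a mucin-like stalk, from which the proteases ADAM10 and ADAM17 release it. CXCR6, the receptor of CXCL16, is carried by activated and tissue-resident T cells and by NKT cells, and CX3CR1, the receptor of fractalkine, by monocytes, macrophages, NK cells and cytotoxic T cells.

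The RefSeq sequences upstream of 4 of the genes are shown because these genes behaved differently in the grafts: Cxcl12 was the most abundant ligand, Cxcr4 and Cxcr6 were receptors that rose, and Ackr3 was the receptor that fell. Each run is the 250 bases before the RefSeq start site on GRCm38.p6, read 5′ to 3′ on the gene's own strand, at chr6:117168285-117168534 (plus strand) for Cxcl12, chr1:128592300-128592549 (minus) for Cxcr4, chr1:90203730-90203979 (plus) for Ackr3 and chr9:123806227-123806476 (plus) for Cxcr6. Capitals mark matches on either strand to any of 8 short motifs.
Cxcl12: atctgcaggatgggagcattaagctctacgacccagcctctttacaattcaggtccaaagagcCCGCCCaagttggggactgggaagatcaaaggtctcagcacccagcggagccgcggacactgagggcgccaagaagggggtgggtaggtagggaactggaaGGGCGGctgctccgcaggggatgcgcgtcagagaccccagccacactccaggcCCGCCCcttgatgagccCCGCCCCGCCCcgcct
Cxcr4: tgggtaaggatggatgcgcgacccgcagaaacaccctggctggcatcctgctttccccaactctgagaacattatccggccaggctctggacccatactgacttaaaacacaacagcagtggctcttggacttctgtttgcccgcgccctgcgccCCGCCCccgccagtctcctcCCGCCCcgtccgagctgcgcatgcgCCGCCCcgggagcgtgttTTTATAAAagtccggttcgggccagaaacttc
Ackr3: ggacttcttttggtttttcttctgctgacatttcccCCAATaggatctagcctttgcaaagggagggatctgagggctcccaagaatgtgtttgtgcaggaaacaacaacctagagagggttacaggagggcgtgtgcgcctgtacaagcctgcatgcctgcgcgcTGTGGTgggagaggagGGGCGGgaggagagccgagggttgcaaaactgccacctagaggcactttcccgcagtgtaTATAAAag
Cxcr6: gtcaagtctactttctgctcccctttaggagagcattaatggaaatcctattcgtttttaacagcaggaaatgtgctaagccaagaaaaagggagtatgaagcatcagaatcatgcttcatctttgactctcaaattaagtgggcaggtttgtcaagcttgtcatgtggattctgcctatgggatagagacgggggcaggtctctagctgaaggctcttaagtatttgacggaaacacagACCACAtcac
The motifs were the GC box GGGCGG, the TATA box TATAAA, the CCAAT box, the RUNX motif TGTGGT, the GAS motif TTCNNNGAA, the ISRE core GAAANNGAA, the T-box motif TCACACC and the hypoxia response core ACGTG. The Cxcl12 stretch held 5 GC boxes, of which the 2 nearest the start overlap by a base, and Cxcr4 held 3, with 2 overlapping TATA boxes at 32 and 30 bases before its start. Ackr3 held 1 GC box, 1 TATA box, 1 CCAAT box and 1 RUNX motif, and the Cxcr6 stretch held 1 RUNX motif 10 bases before its start. GC boxes occurred in 32.7% of the 32851 RefSeq stretches of this length, TATA boxes in 12.4%, CCAAT boxes in 33.8% and RUNX motifs in 14.0%. None of the 6 genes with a RefSeq stretch, which were all but Cxcl16, held the GAS, ISRE, T-box or hypoxia letters, which occurred in 7.02%, 7.13%, 3.33% and 16.6% of all stretches. The GC content of the stretch was 64.4% for Cxcl12, 61.2% for Cxcr4, 54% for Ackr3 and 43.6% for Cxcr6, against a median of 52.4%. These matches describe letters only and say nothing of which factors bind there.

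The libraries held 17532344 to 20194854 counts. Low counts were mostly even (68.0% to 74.6% of genes with 1 to 20 counts), as when both mates of a read pair are counted. Smooth muscle markers were present in every library, at a summed 34375 and 35325 CPM (counts scaled to the library size, with library composition corrected by TMM) in ISO replicates 1 and 2 and at 1473 and 2768 CPM in ALLO replicates 1 and 2, and all 10 fell. The ISO libraries differed from each other. In ISO replicate 1 Xist, made in female cells, had 10647 counts against at most 8 elsewhere, and Ddx3y of the Y chromosome had 0. Ddx3y had 2312 counts in ISO replicate 2 and 2287 and 2105 in ALLO replicates 1 and 2. By these genes ISO replicate 1 was female and the other libraries male, so sex was mixed in ISO only. Summed B cell markers were lowest in ISO replicate 2, at 0.422 CPM. They were at 44.7 CPM in ISO replicate 1 and at 317 and 143 CPM in ALLO replicates 1 and 2. All 7 chemokine and receptor genes were higher there than in the other ISO library, by 0.34 (Ackr3) to 2.35 (Cxcr6) on the log2 scale.

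In ALLO grafts 5 of the 7 genes rose, 1 fell and 1 did not pass the test. The ligand genes Cxcl16 and Cxcl12 rose 17.3- and 3.36-fold, and the receptor genes Cxcr6, Cx3cr1 and Cxcr4 rose 104-, 43.2- and 36.7-fold. The CXCL12-binding receptor gene Ackr3 fell 2.55-fold. Cx3cl1, the fractalkine gene, had a fitted ratio of 2.52 that did not pass. These calls are from edgeR's quasi-likelihood test with a Benjamini-Hochberg adjusted p under 0.05, by which 33.1% of all genes tested were called, 18.4% as higher and 14.8% as lower. The levels of 6 of the 7 genes did not overlap between groups, which was also true of 72.5% of all genes tested, 37.1% as higher and 35.4% as lower. In bulk tissue, more cells of a type and more RNA per cell cannot be told apart.

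**Figure D1:**
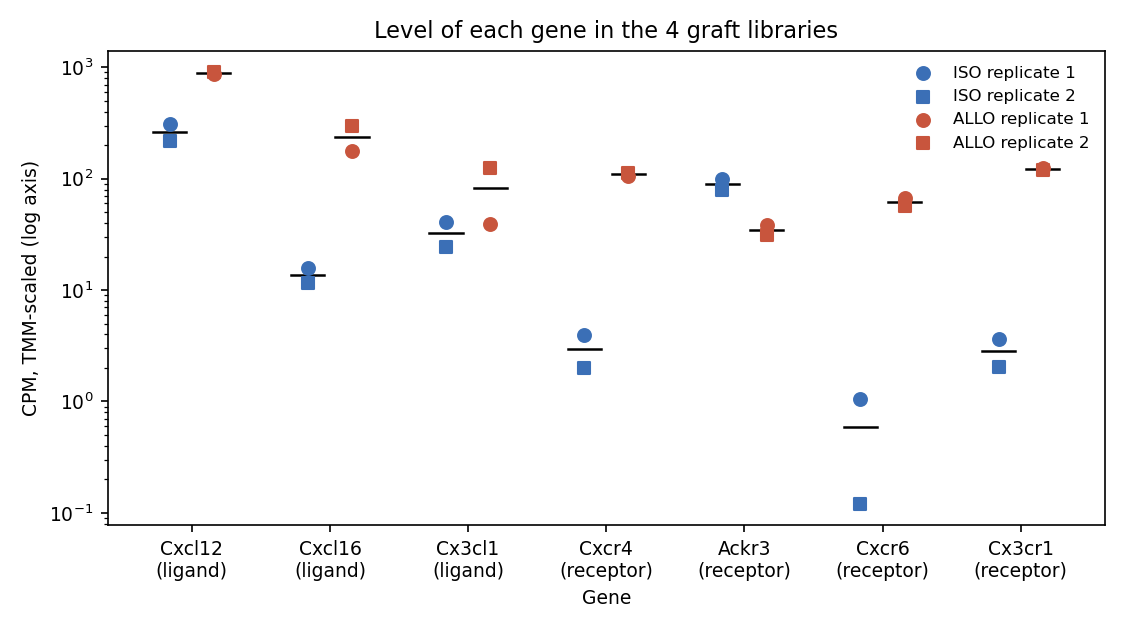
Level of each of the 7 genes in the 4 libraries, in TMM-scaled CPM on a log axis. Blue points are ISO and red points ALLO libraries, circles replicate 1, squares replicate 2, and bars the mean of 2 libraries. The groups overlap for Cx3cl1 alone among the 7, and Ackr3 is the gene whose ALLO points lie below its ISO points.

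Cxcl12 (ENSMUSG00000061353.11, chromosome 6, 117168535 to 117181367, mm10, plus strand) was measured at 311 and 219 CPM in ISO replicates 1 and 2 and at 879 and 902 CPM in ALLO replicates 1 and 2. The ALLO libraries lay close together and well above both ISO libraries. The means were 265 ± 64.7 in ISO and 890 ± 16.4 CPM in ALLO (SD), and the log2 change was 1.75 ± 0.28 (SE, edgeR adjusted p = 0.0109). Fibroblast and adventitia markers, from cells known to make CXCL12, summed to 6760 and 8721 CPM in ISO and to 14945 and 17514 CPM in ALLO. Of these 8 markers 1 rose (Fbln1, a matrix fibulin, 1.81-fold), 1 fell (Pi16, a marker of adventitial fibroblasts, 4.82-fold) and 6 did not pass, and none was at 0 in any library. Without ALLO replicate 1, 2 rose and 2 fell. The Fbln1 call was lost without ISO replicate 1, ISO replicate 2 or ALLO replicate 2. The part of fibroblast number in the Cxcl12 change was not tested. Per 1000 CPM of those markers the Cxcl12 level was 45.9 and 25.1 in ISO and 58.8 and 51.5 in ALLO. Without Col1a1 it was 64.9 and 40.8 in ISO and 97.3 and 128 in ALLO. Scaled to the endothelial markers it was 168 and 123 in ISO and 1091 and 933 in ALLO. Scaled to the smooth muscle markers it was 9.03 and 6.20 in ISO and 597 and 326 in ALLO. It was higher without overlap each time, but by how much depended on the scale. Of 10 markers of endothelium, also known to make CXCL12, 4 passed as lower and 6 did not pass in either direction, and their part in the Cxcl12 change was not tested.

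Cxcl16 (ENSMUSG00000018920.11, chromosome 11, 70453983 to 70459984, minus strand) was at 15.7 and 11.6 CPM in ISO replicates 1 and 2 and at 178 and 295 CPM in ALLO replicates 1 and 2. Both ALLO libraries were more than 10 times above the ISO libraries, and ALLO replicate 2 was 1.66 times ALLO replicate 1. The log2 change was 4.11 ± 0.36 (SE, edgeR adjusted p = 0.00361), from 13.7 ± 2.84 to 236 ± 83.1 CPM (SD). Of the Cxcl16 exonic bases 18.3% also belong to Zmynd15, which runs the other way, and whether strand was used in counting is not stated. Zmynd15 counted 5.38 and 3.74 CPM in ISO and 51.4 and 60.6 CPM in ALLO, so reads of either gene may have been lost or credited to the other. Macrophages are a known source of CXCL16. Macrophage and monocyte markers summed to 818 and 333 CPM in ISO and to 8269 and 5985 CPM in ALLO, with none at 0 in any library. Of these 10 markers 8 rose and 2 did not pass, and 5 rose without ALLO replicate 1. Of the 2 that did not pass with all libraries, Itgam had a log2 change of 3.20 ± 0.98 (SE). Mertk went the other way, from 167 and 164 CPM in ISO to 128 and 128 CPM in ALLO (log2 change -0.37 ± 0.18). Per 1000 CPM of the 10 markers the Cxcl16 level was 19.2 and 35.0 in ISO and 21.5 and 49.3 in ALLO, so the groups overlapped on that scale. Lyz2, the lysozyme gene of macrophages and neutrophils, made up 55.1% and 31.2% of that sum in ISO and 66.0% and 61.0% in ALLO. With Lyz2 left out the Cxcl16 level was 42.6 and 50.8 in ISO and 63.2 and 127 in ALLO, without overlap, so the overlap depended on that marker. The part of macrophage number in the Cxcl16 change was not tested.

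Cx3cl1 (ENSMUSG00000031778.13, chromosome 8, 94772009 to 94782427, plus strand) was at 40.6 and 24.3 CPM in ISO replicates 1 and 2, and at 39.5 and 124 CPM in ALLO replicates 1 and 2. ALLO replicate 1 lay inside the ISO range, while ALLO replicate 2 was 3.14 times ALLO replicate 1. A larger gap between the ALLO libraries was found for 5.03% of the genes tested. The log2 change was 1.33 ± 0.58 (SE, edgeR adjusted p = 0.143), and 1 library decided it. Without ALLO replicate 1 it was 1.97 and passed (edgeR adjusted p = 0.0266), and without ALLO replicate 2 it was 0.29 and did not (adjusted p = 0.568). Leaving out ISO replicate 1 gave 1.74 (adjusted p = 0.0780 by edgeR) and leaving out ISO replicate 2 gave 0.99 (0.303). Fractalkine is made by endothelium among other cells. Endothelial markers summed to 1845 and 1784 CPM in ISO and to 806 and 966 CPM in ALLO, with none at 0 in any library. Per 1000 CPM of them the Cx3cl1 level was 22.0 and 13.6 in ISO and 49.0 and 129 in ALLO, without overlap. The part of endothelial content in the Cx3cl1 values was not tested. Of the 10 endothelial markers 4 fell and none rose. Their median log2 change was -0.97, and it ran from -0.56 (without ALLO replicate 1) to -1.32 (without ALLO replicate 2) with 1 library left out. Tek, the angiopoietin receptor, and Erg, an ETS factor of endothelium, fell 3.18- and 3.63-fold. Kdr and Cldn5 of the same list had log2 changes of 0.39 ± 0.51 and 0.38 ± 0.52 (SE) and did not pass. Scaling Cx3cl1 to single endothelial markers was not tried.

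Cxcr4 (ENSMUSG00000045382.6, chromosome 1, 128588199 to 128592293, minus strand) was at 3.98 and 1.99 CPM in ISO replicates 1 and 2 and at 106 and 114 CPM in ALLO replicates 1 and 2. Both ALLO libraries were far above both ISO libraries and differed from each other by 1.07 times. The log2 change was 5.20 ± 0.38 (SE, edgeR adjusted p = 0.00287), from 2.98 ± 1.40 to 110 ± 5.02 CPM (SD). Only 3.69% of the genes tested had a larger log2 change.

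Ackr3 (ENSMUSG00000044337.5, chromosome 1, 90203980 to 90216751, plus strand) was the member that fell. Its level was 99.3 and 78.4 CPM in ISO replicates 1 and 2 and 38.4 and 31.1 CPM in ALLO replicates 1 and 2, with every ALLO value below every ISO value. The log2 change was -1.35 ± 0.22 (SE, edgeR adjusted p = 0.0112), from 88.9 ± 14.8 to 34.8 ± 5.16 CPM (SD), and it was -1.16 with scaling for library size only, under which the median over all genes shifted by 0.19. Per 1000 CPM of the endothelial markers, whose cells are known to carry ACKR3, the Ackr3 level was 53.9 and 43.9 in ISO and 47.7 and 32.2 in ALLO, where the groups overlapped. Pecam1 was the most abundant of those markers except in ALLO replicate 2, where Vwf was at 242 CPM against 228. Leaving out a marker other than Pecam1 was not tried. Without Pecam1 the Ackr3 level was 82.8 and 75.6 in ISO and 65.2 and 42.2 in ALLO, where the groups did not overlap. Scaled in the same way to the fibroblast and adventitia markers it was 14.7 and 8.99 in ISO and 2.57 and 1.78 in ALLO, lower without overlap. Scaled to the smooth muscle markers it was 2.89 and 2.22 in ISO and 26.1 and 11.3 in ALLO, higher without overlap, so the direction depended on the markers used as the scale. The part of any of these cell types in the fall was not tested.

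Cxcr6 (ENSMUSG00000048521.8, chromosome 9, 123806475 to 123811760, plus strand) had the largest change of the 7 genes. It had 18 and 2 counts in ISO replicates 1 and 2, or 1.05 and 0.121 CPM, and 1300 and 1257 counts in ALLO replicates 1 and 2, or 66.8 and 57.1 CPM. The ISO libraries differed 8.72-fold from each other at this depth, the ALLO libraries by 1.17 times. The log2 change was 6.70 ± 0.76 (SE, edgeR adjusted p = 0.00524), from 0.587 ± 0.659 to 61.9 ± 6.89 CPM (SD). Its size depended on the ISO libraries: 483-fold without ISO replicate 1 and 57.6-fold without ISO replicate 2. The ratio of summed counts was 104, with a 95% interval of 56.2 to 217 that was computed on read pairs and covers counting error only, since reads amplified by PCR are not independent molecules.

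T cells are the best known carriers of CXCR6. All 10 T cell markers rose, and their sum went from 13.8 and 3.26 CPM in ISO to 482 and 387 CPM in ALLO. Trac, the T cell receptor alpha constant region, and Lck, the proximal kinase of that receptor, rose 43.8- and 47.8-fold, while 5 of the 10 markers were at 0 in ISO replicate 2. Per 1000 CPM of T cell markers the Cxcr6 level was 76.3 and 37.0 in ISO and 139 and 147 in ALLO, and the Cxcr4 level was 288 and 611 in ISO and 221 and 294 in ALLO. On that scale the Cxcr6 groups did not overlap and the Cxcr4 groups did. Without Cd4 the Cxcr4 level was 340 and 635 in ISO and 273 and 330 in ALLO, lower without overlap. Cd4 led those markers in ALLO replicate 1 alone, at 91.0 CPM. In ALLO replicate 2 it was at 42.5 CPM and Cd8a at 63.2 CPM. Leaving out another marker in its place was not tried. Macrophages and monocytes also carry CXCR4, and per 1000 CPM of their markers the Cxcr4 level was 4.86 and 5.98 in ISO and 12.9 and 19.0 in ALLO, higher without overlap. Whether the Cxcr4 groups overlapped thus depended on the markers used as the scale. The part of T cell or macrophage number in these changes was not tested.

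Cx3cr1 (ENSMUSG00000052336.7, chromosome 9, 119901616 to 120069879, minus strand) was at 3.63 and 2.05 CPM in ISO replicates 1 and 2 and at 126 and 121 CPM in ALLO replicates 1 and 2. The ALLO libraries lay within 1.04 times of each other and far above ISO. The log2 change was 5.43 ± 0.34 (SE, edgeR adjusted p = 0.00216). Per 1000 CPM of macrophage and monocyte markers the Cx3cr1 level was 4.43 and 6.16 in ISO and 15.2 and 20.1 in ALLO, higher without overlap, and without Lyz2 it was 9.86 and 8.95 in ISO and 44.8 and 51.7 in ALLO. Per CPM of Ccr2 alone, a monocyte receptor gene of the same list, it was 0.525 and 1.13 in ISO and 0.358 and 0.422 in ALLO, lower without overlap. The direction again depended on the marker used. The macrophage genes Csf1r, which encodes the receptor for CSF1, and Fcgr1, a high-affinity Fc receptor, rose 15.1- and 36.5-fold. Markers of NK and cytotoxic cells, which can also carry CX3CR1, rose in 8 of 8 cases (6 of 8 without ALLO replicate 1 or without ALLO replicate 2), from a sum of 3.80 and 6.70 CPM in ISO to 169 and 142 CPM in ALLO. The shares of these cell types in the Cx3cr1 change were not tested.

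**Figure D2:**
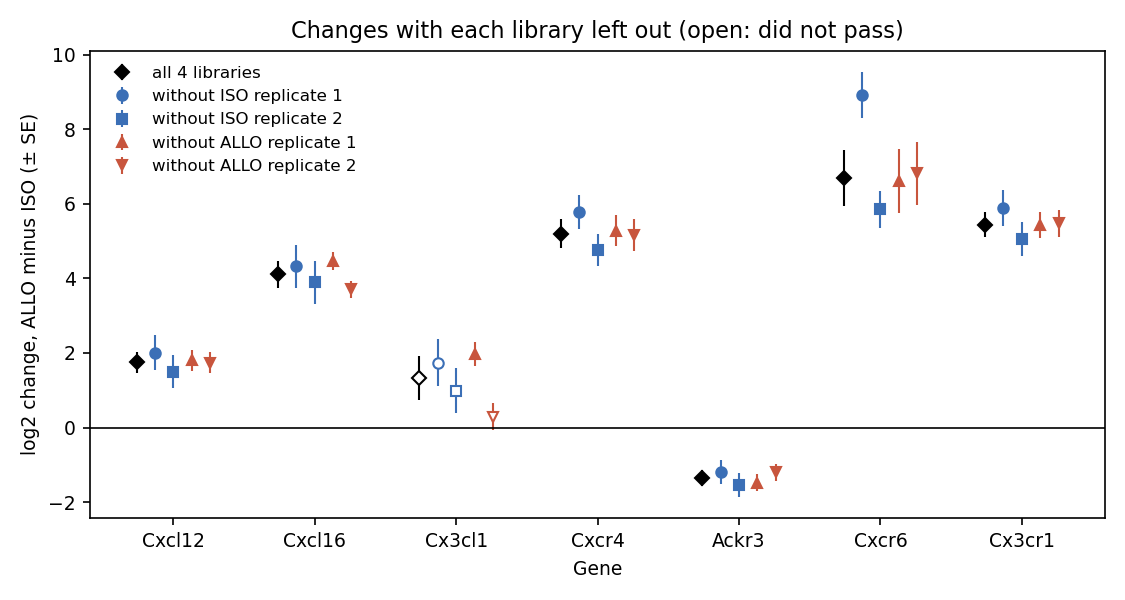
Fitted log2 change of each gene (ALLO minus ISO, ± SE) with all 4 libraries (black) and with each library left out in turn. Open symbols did not pass an adjusted p of 0.05. For Cx3cl1 the value ran from 0.29 to 1.97, and for Cxcr6 it was highest, at 8.91, without ISO replicate 1.

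Levels of different genes were set side by side per length, as counts per kilobase of the deposited gene length on the CPM scale (RPKM). This length joins all annotated exons, so genes with transcripts of very different length, such as Cxcl12 with coding transcripts of 1878 to 5627 bases in 8176, may be understated. Among the ligands, Cxcl12 held 71.0% and 72.7% of the summed RPKM in ISO replicates 1 and 2 and 61.0% and 46.0% in ALLO replicates 1 and 2. Cxcl16 went from 9.69% and 10.5% to 33.3% and 40.8%, with RPKM of 5.19 and 3.86 in ISO and of 58.8 and 97.7 in ALLO. Cx3cl1 stood above Cxcl16 in ISO, 1.99 and 1.61 times, and below it in ALLO, where Cxcl16 was 5.84 and 3.09 times Cx3cl1. The order of the ligands in ISO was thus Cxcl12, Cx3cl1, Cxcl16, and in ALLO Cxcl12, Cxcl16, Cx3cl1, with Cxcl12 only 1.83 and 1.13 times Cxcl16 there.

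Among the receptors, Ackr3 held nearly the whole in ISO and Cxcr4 the most in ALLO. Ackr3 made up 89.3% and 93.5% of the summed receptor RPKM in ISO replicates 1 and 2, and 8.64% and 7.24% in ALLO replicates 1 and 2. Cxcr4 went from 6.62% and 4.40% to 44.3% and 48.9%, Cxcr6 from 1.64% and 0.248% to 26.0% and 23.0%, and Cx3cr1 from 2.42% and 1.82% to 21.0% and 20.8%. In RPKM, Ackr3 was at 29.7 and 23.4 in ISO and 11.5 and 9.30 in ALLO, and Cxcr4 at 2.20 and 1.10 in ISO and 58.9 and 62.8 in ALLO. On the deposited lengths the ALLO levels were 34.6 and 29.5 RPKM for Cxcr6 and 27.9 and 26.8 RPKM for Cx3cr1. This order depends on the length used, since coding transcripts ran from 3156 to 4493 bases for Cx3cr1 and from 1897 to 1907 for Cxcr6. Other lengths were not tried for this pair.

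Of the receptors for CXCL12, then, Ackr3 was 13.5 and 21.3 times Cxcr4 in the ISO libraries, and Cxcr4 was 5.13 and 6.75 times Ackr3 in the ALLO libraries. The log2 ratio of Cxcr4 to Ackr3 per length was -4.08 ± 0.46 in ISO and 2.56 ± 0.28 in ALLO (SD), a difference of 6.64. An exact two-sided permutation test gave p = 0.333, which is the smallest that 2 against 2 libraries allow. The ligand exceeded its signalling receptor less in ALLO: Cxcl12 was 17.3 and 24.3 times Cxcr4 in ISO and 1.83 and 1.76 times in ALLO. Cxcl12 stood at 1.28 and 1.14 times Ackr3 in ISO and at 9.36 and 11.9 times in ALLO. For the other axes, Cxcl16 was 9.52 and 61.7 times Cxcr6 in ISO, where Cxcr6 rested on few counts, and 1.70 and 3.31 times in ALLO. Cx3cl1 was 12.8 and 13.6 times Cx3cr1 in ISO and 0.360 and 1.18 times in ALLO. The ratio of Cx3cr1 to Cxcr4 hardly moved, at 0.366 and 0.413 in ISO and 0.474 and 0.426 in ALLO.

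**Figure D3:**
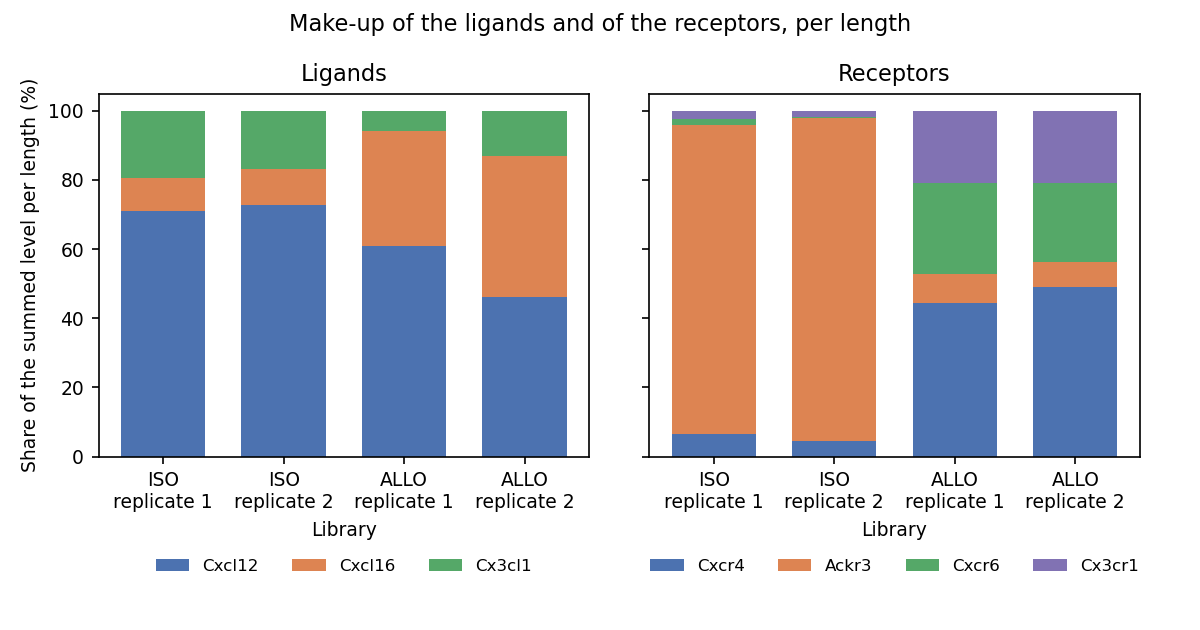
Share of each ligand in the summed level of the 3 ligands (left) and of each receptor in that of the 4 receptors (right), in percent of RPKM, 1 bar per library. Ackr3 makes up 89.3% and 93.5% of the receptor bars in ISO and 8.64% and 7.24% in ALLO, where Cxcr4, Cxcr6 and Cx3cr1 take up the rest.

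Against the 22 detected chemokine receptor genes, Ackr3 ranked first per length in both ISO libraries, with 64.5% and 79.9% of their summed RPKM, and 9 of 22 in both ALLO libraries. Cxcr4 ranked first in both ALLO libraries, with 19.6% and 22.0% of that sum. Among 33 detected chemokine ligand genes Cxcl12 ranked 2 and 1 in ISO replicates 1 and 2 and 5 in both ALLO libraries, where its share was 6.37% and 7.42%. Both families were taken by symbol (Ccl, Cxcl, Cx3cl or Xcl, and Ccr, Cxcr, Cx3cr, Xcr or Ackr, with a number). Chemokine or receptor genes with other symbols were left out, so the ranks and shares hold among the genes taken. These ranks describe levels and carry no test.

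Of 16 genes of CXCR4 and chemokine receptor signalling, 11 rose, none fell and 5 did not pass, with a median log2 change of 1.45 against 0.03 over all genes tested. Over all genes tested 18.4% passed as higher and 14.8% as lower, shares that also stand beside the pathway lists that follow. The part of leukocyte number in the changes of these lists was not tested. The G protein subunit genes Gnai2 and Gnai3, through which these receptors signal, had log2 changes of 0.02 ± 0.26 and 0.11 ± 0.20 (SE) and did not pass. Rgs1, a brake on G protein signalling, rose 97.9-fold, or 189-fold when ISO replicate 1 was left out and 65.2-fold when ISO replicate 2 was. Pik3cg, the catalytic subunit of PI3-kinase gamma, rose 27.9-fold (42.0-fold without ISO replicate 1). Dock2, which activates Rac in lymphocytes, rose 17.6-fold, or 42.7-fold when ISO replicate 1 was left out and 10.9-fold when ISO replicate 2 was, and its partner Elmo1 2.99-fold. Of the receptor-desensitising genes, the arrestin gene Arrb2 rose 10.7-fold (16.4-fold without ISO replicate 1), whereas Arrb1 had a log2 change of 0.48 ± 0.24 and did not pass. The kinase genes Grk2 and Grk3 rose 2.30- and 2.50-fold, but Grk2 lost its call without either ISO library, and Grk3 without ISO replicate 1, ALLO replicate 1 or ALLO replicate 2. Without 1 library 8 to 10 of the 16 rose.

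Of 13 genes for proteases that cut or shed these ligands, with their regulators, 12 were tested, 9 rose, 1 fell and 2 did not pass, with a median log2 change of 1.68. Adam17 rose 3.01-fold, with values of 50.3 and 61.6 CPM in ISO and 187 and 150 CPM in ALLO. Adam10, the other sheddase, rose 1.93-fold, a call that was lost whenever a library was left out (edgeR adjusted p = 0.0505 to 0.277). The Adam17 partner gene Rhbdf1 fell 2.81-fold, and Rhbdf2 had a log2 change of 0.84 ± 0.30 that did not pass (1.19 without ISO replicate 1, edgeR adjusted p = 0.0447). Ctss, the cysteine protease cathepsin S, rose 53.9-fold (94.6-fold without ISO replicate 1), to 1805 and 1609 CPM. Dpp4, which trims and inactivates CXCL12, rose 18.5-fold, from 2.16 and 1.39 CPM to 36.5 and 29.6 CPM. Mmp14 and Mmp2, metalloproteases that also cut CXCL12, rose 5.46- and 3.42-fold. The neutrophil protease gene Elane had 1 and 0 counts in ISO and 36 and 33 in ALLO, a call lost without ISO replicate 2, ALLO replicate 1 or ALLO replicate 2. Ctsg, with 0 and 3 counts in ISO and 24 and 6 in ALLO, was the gene not tested. Without 1 library 6 to 9 rose.

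Of 9 other ligands and partner receptors, 5 rose, 2 fell and 2 did not pass, with a median log2 change of 1.04, which was the same with Cxcl11 at its bound. Cd74, which pairs with CXCR4 as the receptor of MIF and also chaperones MHC class II, rose 35.4-fold. Mif itself rose 2.05-fold, but did not pass when ISO replicate 2 or ALLO replicate 2 was left out. Cxcl11, a ligand that ACKR3 shares with CXCR3, had 0 counts in both ISO libraries and 30 and 86 in ALLO, at least 7.64-fold higher on a floor of 6 counts per library, and its call was lost without ALLO replicate 2. Integrin genes whose products can bind fractalkine went both ways: Itga4 of leukocytes rose 12.9-fold (8.53-fold without ALLO replicate 1), while Itgb3 and Itgb1 fell 4.07- and 3.29-fold and Itgav had a log2 change of -0.46 ± 0.24 that did not pass. Without ALLO replicate 2, 2 of the 9 rose.

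**Figure D4:**
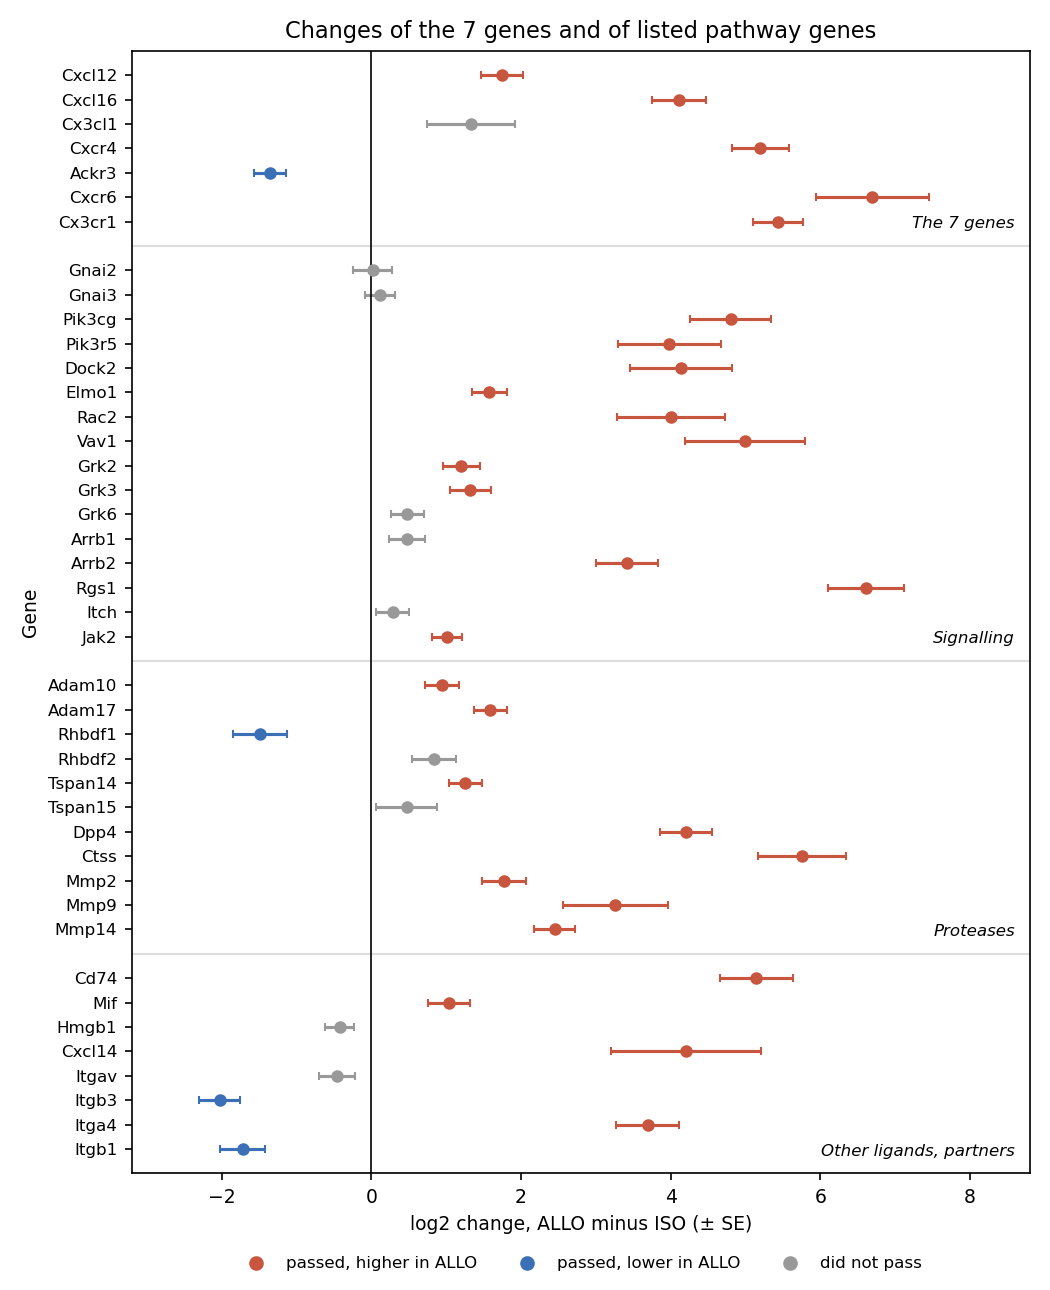
Fitted log2 change (ALLO minus ISO, ± SE) of the 7 genes and of listed genes of signalling, ligand cutting and other ligands or partners. Red points passed as higher, blue as lower and grey did not pass. Cxcl11 and Elane, with 0 and 1 counts in ISO, and the untested Ctsg are not drawn. Ackr3 at -1.35 is the member left of 0.

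The genes nearest to each member in pattern over the 4 libraries were found by Euclidean distance between log2 CPM centred on each gene's mean, among 12261 candidate genes. The log2 CPM had a prior count of 2, which narrows the differences of genes with few counts in a library. With 4 libraries in 2 groups such likeness mostly reflects the group difference and is only a description. Nearest to Cxcl12 were Rftn1, Ctsk and Slc22a23, at distances of 0.0727, 0.0728 and 0.0741. Nearest to Cxcl16 were H2-DMb1, Tmem221 and Lgals3, at 0.122 to 0.259, and nearest to Cx3cl1 were Plaur, Ret and Fkbp1b, at 0.322 to 0.378. Cxcr4 lay nearest to Nsg2, Sema4d and Fcgr1, at 0.121 to 0.157, although the fitted log2 change was 6.50 for Nsg2 against 5.20 for Cxcr4. Ackr3 lay nearest to Celsr2, Smim11 and Ndufa4, at 0.0694 to 0.128. Cxcr6 had Cd8b1, Cd200r1 and AI504432 nearest, at 0.309 to 0.399, and Cx3cr1 had Cxcl10, P2ry14 and Il2ra, at 0.119 to 0.181. Cd8b1 encodes a chain of the CD8 co-receptor of cytotoxic T cells, and Cxcl10 an interferon-induced ligand of CXCR3. Cx3cl1 and Cxcr6, which differed most between the libraries of a group, had the most distant neighbours.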

How the data were processed

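RNA sequencing of aortic grafts gave 4 libraries, 2 ISO and 2 ALLO, grouped by their titles. The values are counts, not normalized, that the authors deposited as 1 table with each gene's length in bases. Subread 1.6.4 (featureCounts), the build mm10, R 4.0.3 and DESeq2 1.30.0 are named in the submitters' processing notes. Aligner, annotation release, use of strand and treatment of multi-mapping reads: not given in the sources used here. Symbols matched 54723 of 54752 Ensembl IDs, and all 7 genes had the same position in GENCODE M21 as in the deposited table. Promoters came from RefSeq (GRCm38.p6).

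Genes were filtered with filterByExpr (minimum count 10), scaled with TMM factors of 0.926 to 1.09, and fitted in edgeR 4.0.16 by group alone (glmQLFit, then glmQLFTest), adjusting p-values over all 16498 genes. SE is the log2 change divided by the root of its F value. DESeq2 1.42.0 and limma 3.58.1 gave alternatives, in R 4.3.3, beside other scalings, filters and each library left out. The procedure was tested on simulated counts. Replicates did not agree within sampling noise (chi-square over degrees of freedom 41.6 in ISO and 139 in ALLO).

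The 7 genes and the 18 gene lists, from textbook knowledge, were chosen with earlier results of these data known. The named genes were the 7 members, the 3 genes nearest to each in pattern (mean of at least 50 counts, without unnamed models, pseudogenes and antigen receptor segments), any pathway gene, and up to 2 genes of each cell type list with the smallest adjusted p, besides markers at 0. Lyz2, Pecam1, Cd4, Col1a1 and Ccr2 were singled out after the values were seen. All but Ccr2 were the most abundant marker of their list over the 4 libraries together, though not in every library. Vwf, Mertk, Itgam, Kdr and Cldn5 were also named after the values were seen.

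The lists not described with a gene gave these counts. Of 7 resident macrophage markers 2 rose and 1 fell, of 7 dendritic cell markers 4 rose, and of 7 B cell markers 0 passed by edgeR (3 at an unadjusted p under 0.05), 0 by DESeq2 and 2 by limma-voom. Of 6 plasma cell, 6 neutrophil and 5 lymphatic endothelial markers, 4, 2 and 4 rose. Of 6 pericyte markers 3 fell, of 6 Schwann cell and nerve markers 3 rose, and of 6 adipocyte markers 1 rose and 1 fell. Without ISO replicate 1, 5 neutrophil and 6 dendritic cell markers rose. Without ISO replicate 2, 1 neutrophil marker rose, and 2 Schwann cell and nerve markers did. Without ALLO replicate 1, 0 neutrophil markers passed by edgeR (2 of 5 tested at an unadjusted p under 0.05), 1 plasma cell, 2 dendritic cell and 5 Schwann cell and nerve markers rose, and 2 resident macrophage markers fell. Without ALLO replicate 2, 3 resident macrophage and 2 Schwann cell and nerve markers rose.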

Additional observations from a re-analysis of the deposited data

How the results depend on the processing

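The 6 calls among the 7 genes kept their direction and their side of the threshold under all 17 alternatives, of which the removal of genes of chromosomes X and Y was added after the data had been seen. Cx3cl1 passed in 1 of the 17, without ALLO replicate 1, so that 6 to 7 of the 7 genes were called with a library left out, 5 to 6 as higher and 1 as lower. Over all genes, 3603 to 4651 were called with 1 library left out (2054 to 2506 higher, 1512 to 2245 lower), against 5469 with all 4 (3032 higher, 2437 lower). The lone library of a group was then assumed to vary like the other group. Against a 1.5-fold threshold 3805 genes were called, 1565 of them lower. Scaling by library size alone made 65.5% of calls higher, against 55.4%. The replicate numbers share only a number: the deviations of same-numbered libraries had a correlation of 0.0974 across genes. The replicate block left 6 of the 7 genes called, 5 higher and 1 lower, and 4873 genes overall (2766 higher, 2107 lower). With the longest coding transcript as the length, also added later, the log2 ratio of Cxcl12 to Cxcl16 in ISO was 3.21 in place of 2.83. B cell markers passed in 7 of 7 cases without ISO replicate 1 and in 4 without ISO replicate 2. At this depth Cxcr6 in ISO rested on 20 counts.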
